A study of Mus musculus with 12 samples.

Results

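Of the clusters that the authors drew in 3 single-cell libraries of sorted CD8+ T cells, 1 in each spleen library carried haemoglobin transcripts, namely cluster 3 of the 12W spleen and cluster 8 of the 28W spleen. They were taken by the authors' cluster numbers and held 1061 of 6894 cells and 376 of 6481 cells, together 1437 of 20510 cells in the series. The cells were PD-1+CD44+CD8+ T cells sorted from female NZB/W F1 mice, the first-generation hybrids of 2 inbred strains, in which lupus nephritis arises spontaneously with age. 12W spleen was taken at 12 weeks, which the study calls pre-disease, and 28W spleen at 28 weeks, its advanced stage, with a kidney library of the same age. No treatment or engineered allele is given for any of these groups. The labels disagree on the age of 28W spleen, whose titles say 28W while the age entry says 12 weeks, and the titles were followed. The labels name 4 samples per group, but each group's table pools them with no map from cells to samples, so each group is 1 library. Nothing in the sources used here says how many mice stand behind a library. No difference below therefore has a replicate check or a p-value, and every interval is a 95% interval that covers counting error only.

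Haemoglobin is made by erythroid precursors, which load themselves with alpha and beta globin and haem and then lose their nucleus, leaving residual globin RNA in reticulocytes. Neutrophil precursors make granule proteins in waves: primary (azurophil) granule genes first, then secondary and tertiary granule genes such as *Ngp*, *Camp*, *Ltf* and *Lcn2*, then genes of the mature cell. The mouse spleen produces both lineages outside the bone marrow, and its red pulp macrophages remove old red cells and recycle their iron. A CD8+ T cell is known to make neither haemoglobin nor these granule proteins.

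Per library, depth was between 29937384 and 34742303 unique molecular identifiers (UMIs, 1 per captured transcript). The 2 spleen libraries shared 52 cell barcodes, of which 8 lay in cluster 3 of 12W and 3 in cluster 8 of 28W. Both haemoglobin-bearing clusters were shallow. Cluster 3 had 2253374 UMIs, or 2124 per cell, the second lowest mean of 10 clusters, and cluster 8 had 383576 UMIs, or 1020 per cell, the lowest of 11. Levels are given as CPM, UMIs per 1000000 UMIs of the cluster. For a count of 0, 3 UMIs were taken as the limit, close to a 1-sided 95% Poisson bound. They correspond to 1.33 CPM in cluster 3 and 7.82 CPM in cluster 8. The 2-sided limits given as intervals reach slightly higher for a count of 0. The reads mark 5′ ends, so CPM is not scaled to gene length and levels are compared between cells, not between genes. The tables hold only cluster means. Whether a few cells carry many of these transcripts or many cells carry few, and whether the same cells carry haemoglobin, granule and T cell transcripts, cannot be told from them.

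The regions before the globin genes are shown because *Hbb-bs*, *Hba-a1* and *Hbb-bt* were among the genes highest over the other cells in both clusters. In cluster 8, *Ngp*, *S100a9* and *S100a8* ranked above them. The region before *Ltf* is also shown, a granule gene that was 45.5-fold higher in the 28W cluster than in the 12W one. The 130 bases before the RefSeq start of each gene (GRCm38.p6) are printed 5′ to 3′ on the gene's strand, and capitals mark matches, on either strand, to CACCC, to the CCAAT box, to the TATA-like ATATAA and the overlapping TATAAA, to the GATA-type AGATAA, or to the C/EBP-type TTNNGNAA. They are *Hbb-bs* (chr7:103827929-103828058, minus), *Hbb-bt* (chr7:103813924-103814053, minus), *Hba-a2* (chr11:32296362-32296491, plus) and *Ltf* (chr9:111019162-111019291, plus).
Hbb-bs: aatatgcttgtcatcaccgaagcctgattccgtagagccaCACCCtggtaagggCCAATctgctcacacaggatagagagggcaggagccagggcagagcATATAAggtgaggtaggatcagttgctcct
Hbb-bt: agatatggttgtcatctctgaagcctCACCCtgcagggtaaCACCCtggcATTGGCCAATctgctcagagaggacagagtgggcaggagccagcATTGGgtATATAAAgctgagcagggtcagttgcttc
Hba-a2: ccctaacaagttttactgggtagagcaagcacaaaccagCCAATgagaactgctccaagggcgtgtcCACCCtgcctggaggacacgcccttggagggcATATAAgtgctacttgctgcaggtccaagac
Ltf: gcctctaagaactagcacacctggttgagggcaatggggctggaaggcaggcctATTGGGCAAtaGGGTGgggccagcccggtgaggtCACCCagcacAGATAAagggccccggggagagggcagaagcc
In all of the globin promoters searched, *Hba-a1* included, CACCC was present together with the CCAAT box and with the TATA-like ATATAA. The ATATAA began 30 bases before the start in *Hbb-bs*, 29 in *Hbb-bt* and 28 in *Hba-a1*. Over 27025 promoters of the same length, CACCC was found in 33.2%, the CCAAT box in 23.2%, the first TATA-like motif (ATATAA) in 4.97% and the second (TATAAA) in 7.29%. The GATA-type motif was found in 4.86% and the C/EBP-type motif in 19.6%. A match is a description of these letters and no evidence of binding. The pair of TATA-like motifs overlap in *Hbb-bt*. The *Ltf* promoter held the GATA-type motif 32 bases and the C/EBP-type motif 75 bases before the start, and neither TATA-like motif. It shared CACCC (65 bases before the start on the opposite strand, and 42) and the CCAAT box (76 bases, opposite strand) with the globin promoters. All of those held both on the printed strand. The CCAAT match of *Ltf* overlaps its C/EBP-type match. In the other neutrophil genes searched, *S100a9* held both the GATA-type and the C/EBP-type motif, and *Camp* and *Lcn2* held neither. *Ngp*, *S100a8*, *Mmp8* and *Cd177* held the C/EBP-type motif but not the GATA-type. The windows of *Hba-a1* and *Hba-a2* were identical over 127 bases when shifted by 3, and those of *Hbb-bs* and *Hbb-bt* matched at 74.4% of 129 bases. The members of each pair are near copies, as is known of these genes, and how reads were divided between them in counting was not tested.

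Cluster 3 made up 15.4% (14.5 to 16.3, exact binomial) of 12W spleen cells, and cluster 8 made up 5.80% (5.24 to 6.40) of 28W spleen cells. Adult haemoglobin, the sum of *Hbb-bs*, *Hbb-bt*, *Hba-a1* and *Hba-a2*, was 36969 CPM (36718 to 37221, exact Poisson) in cluster 3, or 3.70% of its UMIs, against 11.8 (10.7 to 13.1) in the other 12W cells. In cluster 8 it was 40615 CPM (39980 to 41258), or 4.06% of UMIs, against 14.7 (13.4 to 16.1) in the other 28W cells. No other cluster of either spleen came near these levels. The highest were cluster 8 of 12W at 38.6 CPM and cluster 10 of 28W at 50.6 CPM. The 12W cluster at 38.6 CPM was the shallowest of its library, at 928 UMIs per cell, and cluster 11 of 28W, at 1288 UMIs per cell, had 10.8 CPM. The medians over the clusters other than 3 and 8 were 10.4 CPM at 12W and 8.93 CPM at 28W. Whether depth plays a part in the haemoglobin level was not tested. Cluster 3 held 99.5% of all haemoglobin UMIs of its library and cluster 8 held 97.1%. These genes are among those that set the clusters apart, and the clusters were drawn on them, so the levels describe the clusters and are no test.

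Each chain followed the same pattern. *Hbb-bs*, a beta chain gene on chromosome 7 (103826534 to 103828096 in GENCODE M21, GRCm38), had 17754 CPM in cluster 3 and 5.54 in the other 12W cells, and 20408 in cluster 8 and 7.24 in the other 28W cells. *Hba-a1*, an alpha chain gene on chromosome 11, had 14709 CPM against 5.23 at 12W and 14360 against 5.25 at 28W. *Hbb-bt*, the second adult beta chain, had 4449 CPM against 1.05 at 12W and 5785 against 2.24 at 28W. Within counting error *Hba-a1* did not separate the clusters, at 0.976-fold (0.949 to 1.005) in cluster 8 over cluster 3, whereas *Hbb-bs* was 1.15-fold (1.12 to 1.18) and *Hbb-bt* 1.30-fold (1.24 to 1.36) higher in cluster 8. *Hba-a2* had 57.7 CPM in cluster 3 and 62.6 in cluster 8, and 0 UMIs in the other cells of both spleens. Against 3 counts in those cells it was at least 625-fold higher in cluster 3 and at least 660-fold higher in cluster 8. The theta chain gene *Hbq1b* had 10 UMIs in cluster 3 and 6 in the shallower cluster 8, a log2 ratio of CPM + 1 of 1.61 in cluster 8 over cluster 3.

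Of the haemoglobin UMIs, beta chains made up 60.1% (59.7 to 60.4) in cluster 3 and 64.5% (63.7 to 65.2) in cluster 8. In the other cells, the same share was 55.7% (50.6 to 60.8) at 12W and 64.4% (59.8 to 68.7) at 28W. At 28W the interval of the other cells held the values of both clusters, and at 12W it held that of cluster 3 only. Where the few haemoglobin UMIs outside the clusters came from was not tested. *Hbb-bt* was 20.0% (19.7 to 20.4) of beta chain UMIs in cluster 3 and 22.1% (21.3 to 22.9) in cluster 8. Per cell the order of the 2 clusters turned: the mean was 78.5 haemoglobin UMIs in cluster 3 and 41.4 in cluster 8, since a cell of cluster 8 had fewer UMIs in total.

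**Figure D1:**
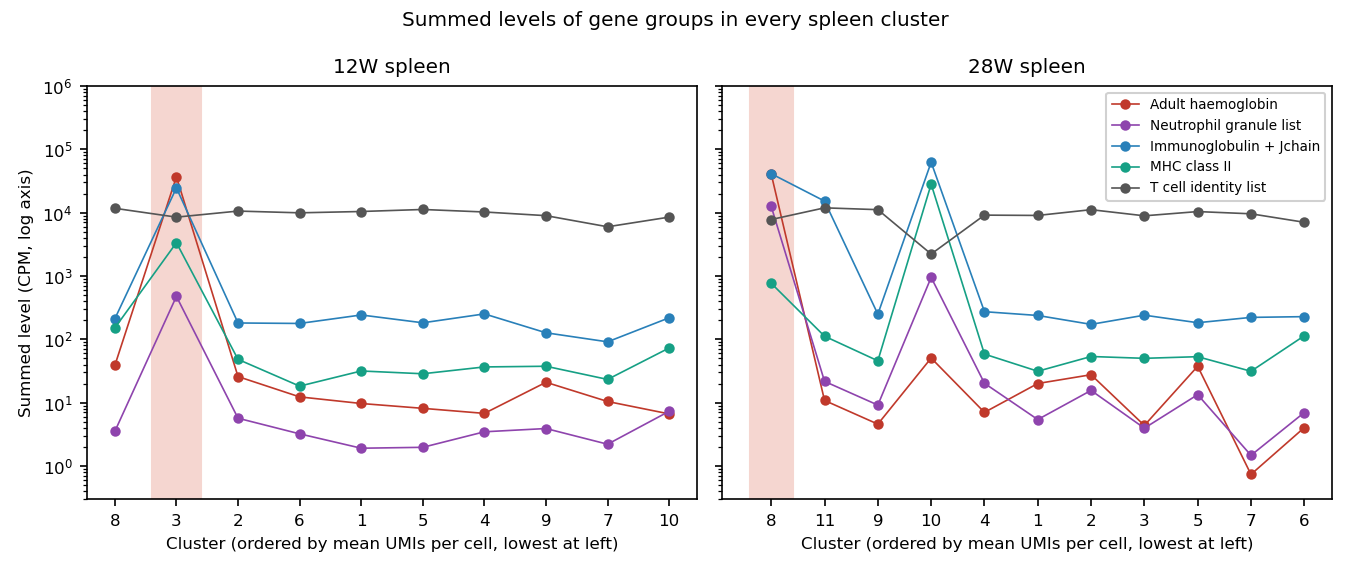
Summed CPM (log axis) of 5 gene groups in every cluster of the 12W and 28W spleen, 1 point per cluster, with clusters ordered by mean UMIs per cell and the haemoglobin-bearing cluster shaded. Haemoglobin peaks in the shaded clusters (36969 and 40615 CPM), immunoglobulin is also high in clusters 10 and 11 of 28W, and MHC class II peaks in cluster 3 at 12W but in cluster 10 at 28W.

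Beyond the chains, some genes of haem synthesis and red cell maturation were higher in both clusters and others were not. At 12W, 232 of 7603 genes with at least 10 CPM on either side (3.05%) were at least 2-fold higher in cluster 3 than in the other cells and 2.58% were at least 2-fold lower. At 28W, 5.05% of 7745 were at least 2-fold higher in cluster 8 and 8.11% lower. *Alas2*, which catalyses the first step of haem synthesis in erythroid cells, had 425 UMIs in cluster 3 (189 CPM) and 80 in cluster 8 (209 CPM), against 3 UMIs in all other cells of each spleen. It stood at 5.10 UMIs (4.63 to 5.61) per 1000 haemoglobin UMIs in cluster 3 and 5.14 (4.07 to 6.39) in cluster 8, which did not differ beyond counting error. Of the 9 haem synthesis genes, 7 passed the 10 CPM minimum at 12W and 9 at 28W, and 2 (*Alas2* and *Fech*, which inserts the iron) and 3 of these were at least 2-fold higher. Over all 9 the median log2 ratio of CPM + 1 was -0.08 at 12W and 0.44 at 28W, beside -0.05 and -0.14 over all genes. The 14 genes of erythroid iron handling had medians of 0.08 and 0.47. *Fech* had 58.1 CPM in cluster 3 against 15.02 in the other 12W cells, and 80.8 in cluster 8 against 15.08 in the other 28W cells.

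Of the 20 genes of the red cell membrane and its skeleton, 18 lay above the other cells at 12W and 16 at 28W, with median log2 ratios of 1.24 and 3.54. *Slc4a1*, the anion exchanger band 3, had 30.2 CPM in cluster 3 and 102 in cluster 8, a 3.37-fold (2.21 to 5.07) difference between the clusters, with 3 UMIs in the other cells at 12W and 2 at 28W. At least 10 CPM on either side was reached by 5 of the 20 at 12W and by 14 at 28W, where 4 UMIs suffice, so the numbers past 2-fold are not compared between the ages.

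Among 16 red cell enzyme and maturation genes, of which 15 passed the minimum at 12W and 16 at 28W, 9 were at least 2-fold higher than in other cells at 12W and 11 at 28W. The shares over all genes tested were 3.05% and 5.05%. *Bpgm*, which makes the 2,3-bisphosphoglycerate that tunes oxygen release, had 122 CPM against 12.9 at 12W and 151 against 13.3 at 28W. *Trim58*, a ubiquitin ligase of enucleation, had 18.6 CPM in cluster 3 and 26.1 in cluster 8. The exception was *Car1*, the red cell carbonic anhydrase, with 2 UMIs in cluster 3 (0.888 CPM, below the 5.20 of other 12W cells) and 27 in cluster 8 (70.4 CPM against 3.60). *Xpo7*, a nuclear export receptor of maturing erythroblasts, also differed, at 46.6 CPM in cluster 3 and 164 in cluster 8, 3.52-fold (2.54 to 4.86) higher.

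The factors that drive early erythroid development were close to absent. *Gata1* had 3 UMIs in cluster 3 and 2 in cluster 8, *Klf1* had 1 and 2, and the erythropoietin receptor gene *Epor* had 1 and 0. Over 12 genes for erythroid transcription factors and receptors the median log2 ratio was 0.31 at 12W and 0.20 at 28W. Of the 3 that passed the minimum at 12W, *Lmo2* was at least 2-fold higher, and of the 5 at 28W, *Lmo2* and *Nfe2* were. *Lmo2* had 16.4 CPM against 1.45 at 12W and 28.7 against 3.19 at 28W. With 3 UMIs equal to 7.82 CPM in cluster 8, a count of 0 there does not exclude levels up to that value.

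**Figure D2:**
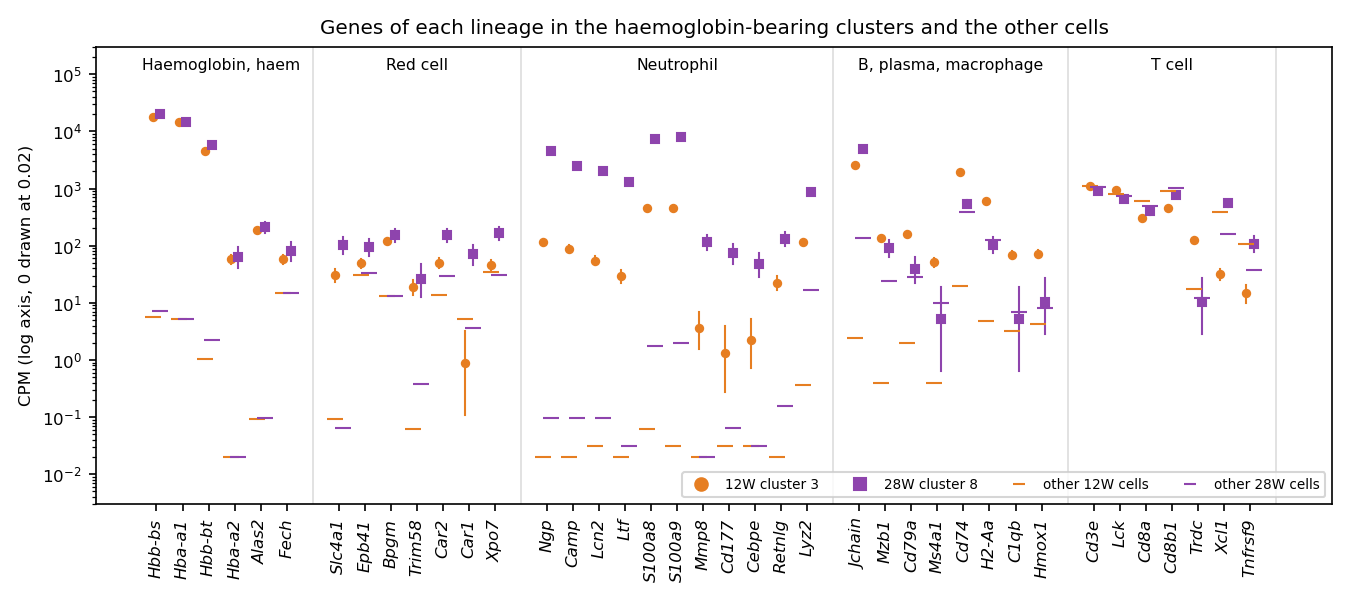
CPM (log axis, 0 drawn at 0.02) of genes of 5 groups in 12W cluster 3 (orange circles) and 28W cluster 8 (purple squares), with exact Poisson 95% limits as vertical lines, and in the other cells of each library (dashes). The circles and squares lie together for haemoglobin and *Cd3e*, whereas the squares lie above the circles for each neutrophil gene shown and below them for *Ms4a1*, *Cd74*, *H2-Aa* and *C1qb*. The listed neutrophil genes *Il1b*, *G0s2* and *Ccl6*, which were at least 2-fold lower in cluster 8 than in cluster 3, are not drawn.

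Neutrophil genes were far higher in cluster 8 than in cluster 3. *Ngp*, which encodes neutrophilic granule protein (chromosome 9, 110419747 to 110423012), had 257 UMIs in cluster 3 (114 CPM, 101 to 129) and none in any other 12W cluster. In cluster 8 it had 1760 UMIs (4588 CPM, 4377 to 4808) and 3 in all other 28W clusters. The level in cluster 8 was 40.2-fold (35.3 to 46.0) that in cluster 3. Set against haemoglobin, there were 3.09 *Ngp* UMIs (2.72 to 3.49) per 1000 haemoglobin UMIs in cluster 3 and 113 (108 to 118) in cluster 8.

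Other secondary and tertiary granule genes followed. *Camp*, the cathelicidin antimicrobial peptide, had 88.8 CPM in cluster 3 and 2521 in cluster 8, 28.4-fold (24.4 to 33.2) apart. *Lcn2*, which binds bacterial siderophores, had 54.1 and 2031 CPM, and *Ltf*, lactoferrin, had 28.8 and 1311 CPM. The collagenase gene *Mmp8* had 3.55 and 115 CPM. All 14 genes of this list in the tables were at least 2-fold higher in cluster 8 than in cluster 3, beside 6.4% of the 7876 genes tested, and the median log2 ratio of CPM + 1 was 4.37, beside -0.15 over all genes. Summed, the list had 476 CPM in cluster 3 and 12514 in cluster 8. Against the other cells of the same library, 12 of 14 lay above 0 at 12W, with a median of 3.59, and 14 of 14 at 28W, with a median of 6.49. These genes took part in drawing the clusters. In the remaining cells the list had 3.42 CPM at 12W and 30.1 at 28W, and most of the latter lay in cluster 10 of 28W, at 950 CPM, carried by *Lyz2* with 498 UMIs, whereas *Ngp* had 3 UMIs in all clusters other than 8.

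Genes of the mature neutrophil were mixed. The calprotectin subunits *S100a8* and *S100a9* each had 1027 UMIs and 456 CPM in cluster 3, and 7271 and 8017 CPM in cluster 8, 15.95-fold (14.8 to 17.2) and 17.6-fold (16.4 to 18.9) higher. *Ly6g*, the surface antigen by which neutrophils are gated, had 11 UMIs in cluster 3 and 103 in cluster 8. *Cebpe*, the transcription factor of late granule genes, had 5 and 18 UMIs. *Il1b* went the other way, with 31 UMIs in cluster 3 and 1 in cluster 8, as did *Ccl6* with 24 and 1, while the receptor genes *Cxcr2* and *Csf3r* had 6 UMIs or fewer in each. Of 14 mature neutrophil genes, 10 passed the minimum in 1 or both clusters, of which 7 were at least 2-fold higher in cluster 8 than in cluster 3 and 3 at least 2-fold lower (*Il1b*, *G0s2* and *Ccl6*). The shares over all genes tested were 6.4% higher and 11.1% lower. Of 6 listed primary granule genes, 5 were at or near 0: *Mpo*, *Prtn3*, *Ctsg* and *Ms4a3* had 0 UMIs in both clusters, and *Elane* had 1 in cluster 3. The other, *Srgn*, a granule proteoglycan gene that T cells also express, had 449 CPM against 493 at 12W and 488 against 582 at 28W. Other cells at 12W had more *Mpo*, at 2.95 CPM, above the 1.33 CPM that a count of 0 allows in cluster 3.

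B cell, plasma cell and macrophage genes were divided between clusters in a different way at the 2 ages. At 12W they lay in cluster 3. The MHC class II invariant chain gene *Cd74* had 1981 CPM there against 19.5 in the other cells, *H2-Aa* of the class II molecule itself 611 against 4.74, and the B cell receptor component *Cd79a* 160 against 1.94. The complement genes *C1qa*, *C1qb* and *C1qc*, made by macrophages, had together 191 CPM against 9.23, and *Hmox1*, which degrades haem, 72.3 against 4.31. *Apoe*, abundant in macrophages, had 66.6 against 2.09. All 13 B cell genes lay above the other 12W cells in cluster 3, with a median log2 ratio of 4.70, and so did 15 of 16 monocyte and red pulp macrophage genes, with a median of 2.29. Cluster 3 held 86.2% of all UMIs of 4 MHC class II genes in its library, and 59.0% of those of C1q.

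At 28W most of these genes lay instead in cluster 10, which had 89.9% of the MHC class II and 70.9% of the C1q UMIs, while cluster 8 had 1.35% and 1.55%. The other 28W cells include cluster 10, which had 28204 CPM of summed MHC class II. Cluster 8 had 766 CPM, against a median of 53.3 over all 28W clusters but 8. B cell genes other than immunoglobulin had 884 CPM in cluster 8, against a median of 95.5. In cluster 8 *Cd74* had 540 CPM against 383 in the pooled other 28W cells, *H2-Aa* 104 against 125 and *Cd79a* 39.1 against 28.2. Cluster 8 was therefore lower than cluster 3 for *H2-Aa* by 5.86-fold and *C1qb* had 2 UMIs against 153, a ratio of 0.0768 (0.00922 to 0.282). For *Ms4a1*, the gene of CD20, the counts were 2 and 115 UMIs. *Hmox1* had 4 UMIs in cluster 8 and 163 in cluster 3. In cluster 8 over cluster 3, 11 of the 13 B cell genes and 14 of the 16 macrophage genes lay below 0, with medians of -2.04 and -1.84 beside -0.15 over all genes, of which 11.1% were at least 2-fold lower.

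Of 7 plasma cell genes, 7 lay above the other cells at 12W and 5 at 28W, with median log2 ratios of 2.19 and 1.85, and the other 2 (*Prdm1* and *Igha*) had 0 UMIs in cluster 8. *Jchain*, which joins the units of secreted IgM and IgA, had 2605 CPM in cluster 3 against 2.46 in the other 12W cells, and 4943 in cluster 8 against 135 in the other 28W cells, where cluster 10 had 5519. *Mzb1*, a chaperone of antibody secretion, had 134 CPM in cluster 3 and 91.2 in cluster 8. Immunoglobulin genes made up 2.20% of UMIs in cluster 3, 3.63% in cluster 8 and 5.70% in cluster 10 of 28W. The V segments differed between libraries. *Igkv12-89* had 19075 UMIs in cluster 3, 41.7% of its V segment UMIs, and 0 in cluster 8, where it was lower by at least 1082-fold against 3 counts. *Igkv1-135* had 4482 UMIs in cluster 8, 33.8% of its V segment UMIs, and 15 in cluster 3. Of the segments with at least 100 CPM, 23 were in cluster 3 and 15 in cluster 8, and 6 were in both, or 26.1% of the first and 40.0% of the second. Any UMI was seen for 101 segments in cluster 3 and 41 in cluster 8, and the same CPM needs fewer UMIs in the shallower cluster 8. The 5 leading segments held 67.3% of V segment UMIs in cluster 3 and 77.6% in cluster 8. V segments are alike in sequence and were counted against a reference of another strain, so their identities are uncertain.

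**Figure D3:**
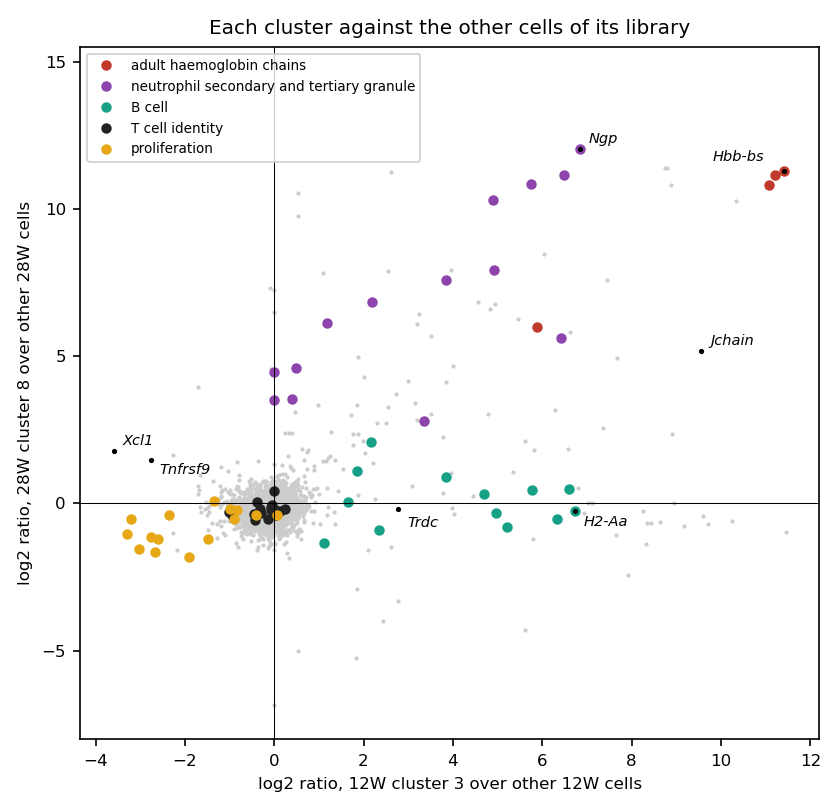
Log2 ratio of CPM + 1 of each gene with at least 50 CPM in a cluster or the other cells of either library, with every gene of the coloured lists, in 12W cluster 3 over the other 12W cells (horizontal) and in 28W cluster 8 over the other 28W cells (vertical). Haemoglobin lies at the upper right (*Hbb-bs* at 11.41 and 11.27), granule genes are higher on the vertical than on the horizontal axis for most members, most B cell genes spread along the horizontal axis, and T cell identity genes sit near 0 on both.

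As shares of UMIs, most T cell genes were close to or below the level of the other cells in both clusters, and per cell they were lower. *Cd3e*, a signalling chain of the T cell receptor complex, had 1126 CPM in cluster 3 against 1106 in the other 12W cells, and 894 in cluster 8 against 1049 in the other 28W cells. The kinase gene *Lck* had 959 against 815 and 667 against 752. Over the 17 T cell identity genes the median log2 ratio was -0.07 at 12W and -0.26 at 28W, beside -0.05 and -0.14 over all genes, and 1 of 17 at 12W (*Cd8a*) and none at 28W was 2-fold away from the other cells. At 28W 15 of the 17 lay below the other cells. Per cell, the list had 18.0 UMIs in cluster 3 against 53.2 in the other 12W cells, and 7.95 in cluster 8 against 46.9 in the other 28W cells. Summed, the list had 8495 CPM in cluster 3, rank 2 from the lowest of 10 clusters, where the others had a median of 10246. It had 7790 in cluster 8, rank 3 from the lowest of 11, where the others had a median of 9369. The lowest 28W value was 2220 CPM, in cluster 10. Per cell, *Cd3d*, *Cd3e* and *Cd3g* together had 6.66 UMIs in cluster 3 and 2.61 in cluster 8. The other 12W clusters had 2.98 to 37.6. At 28W only cluster 10, which held most of the MHC class II UMIs, had fewer, at 2.0, and the next lowest, cluster 11, had 4.27.

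The sort markers were present as well. *Pdcd1*, the gene of PD-1, had 35.5 CPM in cluster 3 against 36.6 in the other 12W cells and 52.1 in cluster 8 against 34.5 at 28W, from 80 and 20 UMIs. *Cd44* had 28.4 against 31.6 and 44.3 against 48.5 CPM. The co-receptor genes were lower in cluster 3: *Cd8a* had 301 CPM against 611, and *Cd8b1* 464 against 901. In cluster 8 they were lower by less, at 399 against 489, a log2 ratio of -0.29 (-0.55 to -0.04), and at 782 against 1018, -0.38 (-0.56 to -0.20). Cluster 3 had 0.244 *Cd8a* and *Cd8b1* UMIs (0.231 to 0.257) for each *Cd3d*, *Cd3e* or *Cd3g* UMI, below all other 12W clusters (0.354 to 0.577). Cluster 8 had 0.461 (0.411 to 0.516), inside the range of the other 28W clusters (0.317 to 0.615). *Cd4* had 6 and 0 UMIs. *Trdc*, the constant segment of the delta chain of the gamma delta T cell receptor, had 126 CPM in cluster 3 against 17.6 in the other 12W cells, 7.20-fold (6.22 to 8.31), and the next highest 12W cluster, cluster 2, had 45.2. In cluster 8 it had 4 UMIs (10.4 CPM against 12.1). Over 5 gamma delta genes the median log2 ratio to the other cells was 1.47 in cluster 3, with 5 of 5 above 0, and -0.20 in cluster 8, with 1 of 5 above 0.

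T cell state genes set the clusters apart from the other cells in places. Of 15 proliferation genes, 10 at 12W and 7 at 28W were at least 2-fold lower than in the other cells. Over all genes tested, 2.58% at 12W and 8.11% at 28W were. The other cells include 1 cycling cluster per library, with a summed level of 13473 CPM in cluster 10 of 12W and 7569 in cluster 6 of 28W. The summed level in cluster 3, 2108 CPM, was above the median of the other 12W clusters, 1900, and that in cluster 8, 2052 CPM, was above the 28W median of 1859. *Top2a*, which untangles replicated DNA, had 4.88 CPM against 56.5 at 12W and 26.1 against 55.0 at 28W, and *Birc5*, a mitotic regulator, 7.10 against 50.4 and 15.6 against 51.2. Other genes ran in opposite directions. *Xcl1*, a chemokine of activated CD8+ T cells that draws cross-presenting dendritic cells, had 31.5 CPM in cluster 3 against 389 in the other 12W cells, where cluster 7 had 2088. In cluster 8 it had 547 CPM against 158, close to the 584 of the leading 28W cluster, cluster 6. *Tnfrsf9*, the gene of the costimulatory receptor 4-1BB, had 14.6 against 106 CPM at 12W, where cluster 7 had 523, and 107 against 37.5 at 28W. The lowest other 12W cluster had 17.2 CPM of *Xcl1* and 6.43 of *Tnfrsf9*, below the levels of cluster 3. Between the clusters *Xcl1* was 17.4-fold (13.2 to 23.1) and *Tnfrsf9* 7.30-fold (4.50 to 11.9) higher in cluster 8. Of the 10 activation and migration genes, 9 passed the minimum at each age. Of these, 5 were at least 2-fold lower in cluster 3 than in the other 12W cells, beside 2.58% of all genes tested. In cluster 8, 3 were at least 2-fold higher than in the other 28W cells, beside 5.05% of all genes tested. The interferon-stimulated gene *Rsad2* was higher in both, at 54.6 CPM against 3.88 and 149 against 17.1, while 11 of the 13 genes of its list at 12W, and 12 at 28W, stayed within 2-fold of the other cells.

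Between 12W and 28W, T cell programmes in the haemoglobin-bearing clusters and in the remaining cells are set side by side, as values of the same 2 libraries. The interferon-stimulated list had a median log2 ratio of 0.97 in cluster 8 over cluster 3 and 1.17 in the other cells, and *Isg15* went from 57.2 to 143 CPM in the clusters. Cytotoxic and effector genes had 0.48 and 1.03. *Gzmk*, a granzyme, had 19.5 CPM in cluster 3 and 78.2 in cluster 8, and 25.5 and 138 in the other cells. Naive and memory genes had -0.83 and -0.32. *Lef1*, a transcription factor gene of naive and memory T cells, had 367 and 130 CPM in the clusters and 356 and 174 in the other cells. Activation and migration genes had 0.94 and -0.98. Proliferation genes had 1.04 and -0.04, but their summed level did not follow the median, at 2108 CPM in cluster 3 and 2052 in cluster 8. *Sox4*, a transcription factor gene, was among the 8 lowest ratios of cluster 8 over cluster 3, with 242 UMIs in cluster 3 (107 CPM) and 5 in cluster 8 (13.0 CPM). Over all other cells, 1.79% of 7411 genes were at least 2-fold higher at 28W and 0.688% lower.

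**Figure D4:**
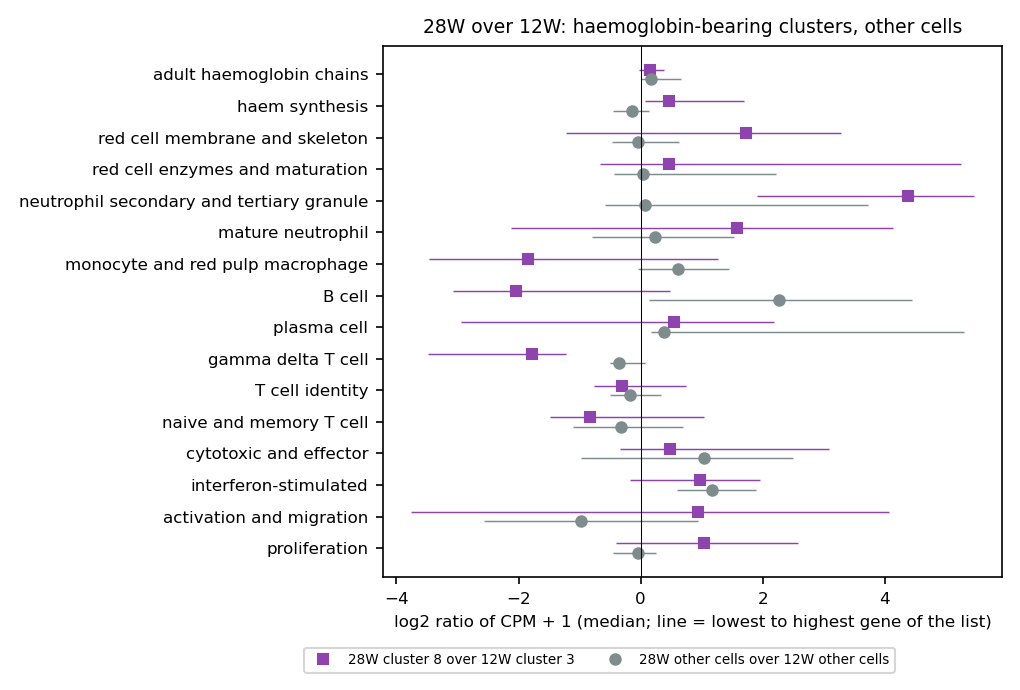
Median log2 ratio of CPM + 1 at 28W over 12W for 16 gene lists, in cluster 8 over cluster 3 (purple squares) and in all other 28W cells over all other 12W cells (grey circles), with lines from the lowest to the highest gene of the list. The granule list stands at 4.37 in the clusters and 0.07 in the other cells, and the B cell list at -2.04 and 2.26.

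The composition of the 2 clusters also differed from the other cells in housekeeping transcripts. Ribosomal protein genes made up 23.6% of UMIs in cluster 3 and 22.2% in cluster 8, the second lowest share of each library. Mitochondrially encoded transcripts were 1.27% in cluster 3 and 1.71% in cluster 8, where all 13 genes lay above the other cells with a median log2 ratio of 0.69. The clusters with the most mitochondrial RNA were others, cluster 8 of 12W at 8.98% and cluster 11 of 28W at 6.64%. Markers of further cells were few. Of 10 eosinophil, basophil and mast cell genes *Prg2* had 10 UMIs and *Prg3* 3 in cluster 3 and the rest none, and none had any in cluster 8. The platelet gene *Pf4* had 13 UMIs in cluster 3 and 14 in the shallower cluster 8, a log2 ratio of 2.47 in cluster 8 over cluster 3. The 6 kidney tubule genes had 1 UMI in all. The part that these other lineages, or the low depth, play in the T cell values above was not tested.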

How the data were processed

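Sorted PD-1+CD44+CD8+ T cells came from 12W spleen, 28W spleen and 28W kidney of NZB/W F1 mice and were made into 10x Genomics 5′ v2 libraries, per the labels. The submitters' processing notes list Cell Ranger 2.1.1, R 3.6.1 and GRCm38, and the study's methods name a Cell Ranger pipeline for quantification. Its cell filters, doublet treatment and annotation release are not given in the sources used here. Clustering was the authors'.

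The deposited signal values are mean counts per gene and cluster, which the authors had scaled to a common depth per library. Each column is made of whole multiples of 1 step, and dividing by it gave whole UMI counts for 100% of values, within 0.001, in all 33 columns. The authors' fold changes and adjusted p-values in the same tables were not used. UMIs were divided by the cluster total (CPM), and log2 ratios were taken of CPM + 1, which understates the change of low genes. Gene counts past 2-fold use genes with at least 10 CPM on either side.

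Members and gene lists were chosen with earlier results of these data known. In each comparison the text draws on the 12 highest and 8 lowest ratios among genes with at least 50 CPM on either side, with antigen receptor segments ranked apart, and on the haemoglobin genes, the 4 given markers, the sort markers, the 4 genes of each list with the highest CPM and any list gene past 2-fold in both clusters; other list genes named for their role (among them *Gata1*, *Klf1*, *Epor*, *Car1*, *Il1b*, *Ccl6*, *Cebpe* and *Xpo7*) were chosen after their values were seen. Some genes of the lists are not reported here. The lists hold genes under current symbols, 2 of which matched under older ones, and genes not in the tables were left out. GENCODE M21 held 18960 of the 18992 gene identifiers in the tables and gave their coordinates. A list's median is over its genes in the tables. Intervals are 95% exact Poisson limits for CPM, exact conditional limits for ratios and exact binomial limits for shares. With 1 library per group no test was run. The steps were tested on simulated data (Python 3.11.15, numpy 2.4.6, scipy 1.17.1, pandas 2.3.3).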

Additional observations from a re-analysis of the deposited data

Results flagged for a closer look

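A few genes lay on opposite sides of the other cells at the 2 ages, and the difference was not tested, since each age is 1 library. Of 7211 genes with enough counts at both ages, 5 were at least 2-fold higher in cluster 3 and 2-fold lower in cluster 8, and 8 the reverse. *Xcl1* had a log2 ratio to the other cells of 1.78 in cluster 8 of 28W and -3.58 in cluster 3 of 12W. *Tnfrsf9* had 1.49 and -2.77, and *Igfbp4*, the gene of an insulin-like growth factor binding protein, had 1.63 and -2.27. Cluster 7, which is among the other cells of 12W, held 81.9% of the *Xcl1* and 75.3% of the *Tnfrsf9* UMIs of that library. The gamma chain segment *Trgv2* had -2.89 in cluster 8 and 1.86 in cluster 3, and the immunoglobulin segment *Ighv1-82* had -4.30 and 5.62. Both values of cluster 8 rest on 1 UMI, or 2.61 CPM. Their intervals were -4.74 to -0.68 for *Trgv2* and -6.12 to -2.14 for *Ighv1-82*.

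The kidney library, which the comparisons above do not use, held haemoglobin and neutrophil transcripts in separate clusters. Adult haemoglobin reached 2145 CPM in cluster 2 and 1799 CPM in cluster 11. The listed neutrophil genes reached 24655 CPM in cluster 12, which had 3287 *Ngp* UMIs and 2 haemoglobin UMIs, while cluster 11 had no *Ngp* UMI. In cluster 2, *Hbb-bt* was 2.61% (1.88 to 3.52) of beta chain UMIs, and in cluster 11 it was 20.1%.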

How the results depend on the processing

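Taken as shares of UMIs in place of cells, cluster 3 was 6.49% of the 12W spleen and cluster 8 was 1.20% of the 28W spleen. The log2 haemoglobin ratio to the other cells, 11.49 at 12W and 11.33 at 28W, was 10.10 and 8.99 per cell, 10.73 and 10.68 with a pseudocount of 10 CPM, and 11.66 and 12.00 against the median of the other clusters. At 28W it was 11.18 with mitochondrial, ribosomal protein and T cell receptor genes left out of the total. Cluster 8 over cluster 3 reversed from 0.14 to -0.92 per cell, where all genes shift by -1.06. The T cell identity median was -1.46 at 12W and -2.61 at 28W per cell, and 0.027 at 12W with haemoglobin, immunoglobulin and neutrophil genes left out of the total, an alternative chosen after seeing the data. The granule median of cluster 8 over cluster 3, 4.37, was 2.99 with a pseudocount of 10 CPM. Genes past 2-fold numbered 428 for cluster 3, 1019 for cluster 8 and 1377 between them. The counts were 6954, 7585 and 5206 per cell, 250, 352 and 508 with a pseudocount of 10 CPM, and 1253, 2949 and 3462 with no filter on low values. No paired analysis was possible because the tables pool the numbered samples of each group, and for the same reason no replicate could be left out. Depth limits cluster 8 most, where a count of 0 allows up to 7.82 CPM.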

Other observations

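Of the genes at least 2-fold higher than in the other cells of their library, 94 were shared by the 2 clusters. These were 40.5% of the 232 of cluster 3, beside 5.05% of all genes tested at 28W. They were 24.0% of the 391 of cluster 8, beside 3.05% of all genes tested at 12W. Of the genes at least 2-fold lower, 41 were shared, 20.9% of 196 and 6.53% of 628, beside 8.11% at 28W and 2.58% at 12W of all genes tested. Heat shock and stress genes had a median log2 ratio to the other cells of -0.22 at 12W and -0.09 at 28W over 13 genes. Over 8 NK cell genes it was -0.06 and -0.11. Over 8 dendritic cell genes it was 1.11 at 12W, with 7 of 8 above 0, and -0.34 at 28W, with 2 of 8 above 0 and 5 at 0 UMIs in cluster 8.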
